A study of Mus musculus with 4 samples.

Results

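Miglustat, an iminosugar, was compared with D-PDMP and D-PPMP, a pair of ceramide analogues, in MC3T3-E1 cells, an osteoblast precursor line from mouse skull bone. The comparison used 3 of the 4 arrays of the study. They were the array titled Miglustat, of cells given 50 µM, and those titled D-PDMP (10 µM) and D-PPMP (1.0 µM). The fourth, Control, was not part of the comparison and its values are given beside the results. Cells were treated for 4 days, replated and cultured for another 24 h. Each group was 1 array, so a difference has no replicate error and no test, and no p-value is given. The doses differed between the compounds, so compound and dose cannot be told apart.

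Glucosylceramide synthase, encoded by Ugcg, adds glucose to ceramide and so starts the synthesis of most glycosphingolipids, among them the gangliosides. Miglustat is a sugar mimic that also acts on other glucose-handling enzymes, including the non-lysosomal glucosylceramidase Gba2 and the alpha-glucosidases that trim N-glycans in the endoplasmic reticulum. D-PDMP and D-PPMP resemble ceramide instead, share a morpholine ring and differ from each other in the length of the fatty acyl chain. Osteoblasts build the collagen matrix of bone and regulate their growth through locally made growth factors that this matrix binds.

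Expression was measured as the log2 signal of a probe minus the 75th percentile of its array, called the level here, so that a level of 0 is the brightness of that percentile. The difference is the level with Miglustat minus the mean of the levels with D-PDMP and D-PPMP. A gene took the values of its brightest probe. It counted as measured when that probe was well above background on all 3 arrays, which held for 14293 of 22911 genes with a probe. A gene was called at a difference of at least 2-fold with the same sign against each of the 2 other arrays. Levels of different genes cannot be compared. All 4 arrays lay on 1 slide in the order Control, Miglustat, D-PDMP, D-PPMP, so group and slide position cannot be told apart. The share of probes well above background was 57.4% to 62.4%, and no spot was saturated. Runx2, Sp7, Col1a1, Col1a2, Spp1, Sparc and Cdh11, markers of the osteoblast lineage, were well above background on all 4 arrays, whereas of 3 markers of maturing osteoblasts Alpl and Ibsp were so on none and Bglap, osteocalcin, only on D-PDMP and D-PPMP. Markers of other cell types were partly present: per array, 7 to 8 of 14 skeletal muscle, 5 to 6 of 11 cartilage, 5 to 7 of 11 adipocyte, 5 of 11 leukocyte, 4 to 6 of 11 epithelial, 2 to 3 of 10 endothelial and 8 of 11 fibroblast and tendon markers were well above background. Among those so on no array were Myod1 and Myog of muscle, Acan of cartilage, Ptprc of leukocytes, Epcam of epithelium and Cdh5 of endothelium. Other members were bright on all 4 arrays. Col2a1 of cartilage was at a level of 6.43 under Miglustat and 5.70 to 6.05 elsewhere. Actc1 of muscle was at 6.10 to 6.39, Krt14 of epithelium at 2.80 to 3.44 and Flt1 of endothelium at 3.38 to 3.53. The median difference of the 5 measured cartilage markers was -0.03. The summed signal of the cartilage markers, in multiples of the 75th percentile, was 109 under Miglustat and 76.6 to 88.5 on the other arrays, and that of the epithelial markers 19.8 under Miglustat and 21.7 to 36.4 elsewhere; their part in the results was not tested.

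With Miglustat, 62 genes were at least 2-fold higher than with the ceramide analogues (0.434% of genes measured) and 42 were at least 2-fold lower (0.294%), together 0.728%. The median difference over all genes was -0.02, and 96.4% of genes lay within 1.5-fold. The standard deviation over genes was 0.25 for Miglustat minus D-PDMP, 0.28 for Miglustat minus D-PPMP and 0.19 for D-PDMP minus D-PPMP. Between D-PDMP and D-PPMP, 25 genes were at least 2-fold apart (0.175%), against 100 between Miglustat and D-PDMP (0.7%) and 142 between Miglustat and D-PPMP (0.993%). Of the called genes, 40 of the 62 higher (0.28% of genes measured) and 24 of the 42 lower (0.168%) were at least 2-fold apart from each ceramide analogue separately. D-PDMP and D-PPMP lay within 1.5-fold of each other in 54 of the 62 and in 34 of the 42. The Control level fell between Miglustat and the mean of the ceramide analogues in 55 of the 62 and in 38 of the 42. The same shares over all genes were not computed, so neither count sets the called genes apart from the rest. Choosing genes for a wide gap between the sides also favours a Control level in between.

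**Figure D1:**
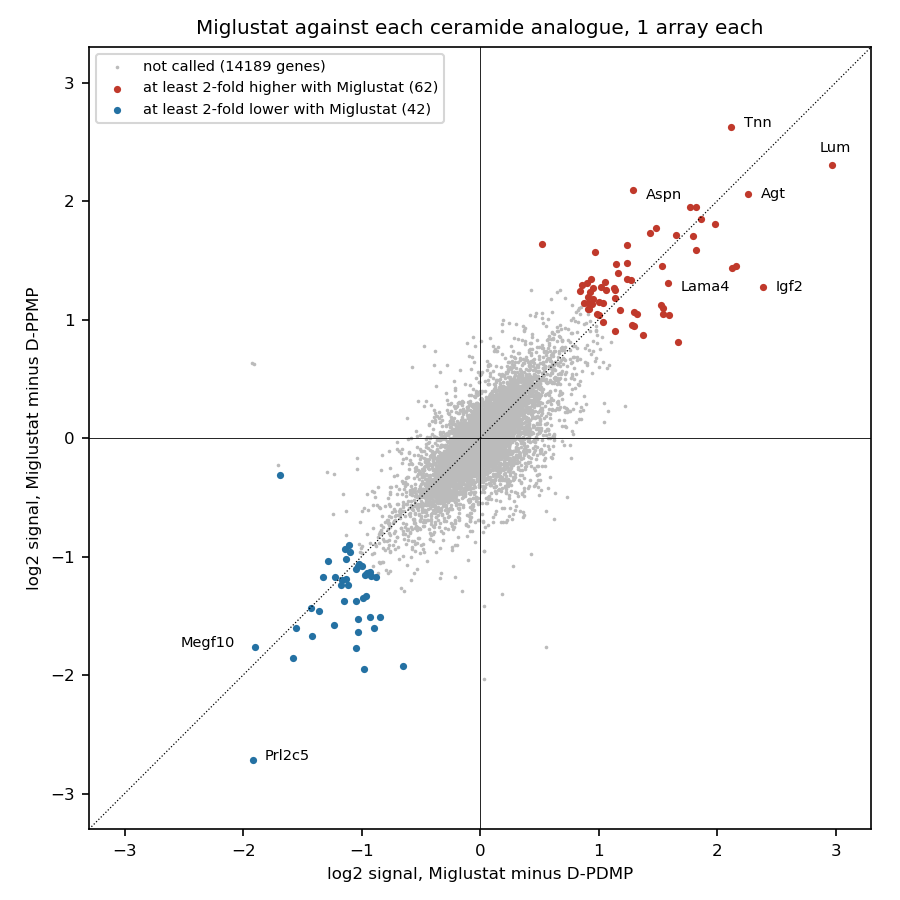
Each point is 1 of 14293 genes, with the log2 difference of Miglustat from D-PDMP on the x axis and from D-PPMP on the y axis; the D-PDMP and D-PPMP values share the Miglustat array, so the slope is built in. Red marks the 62 genes at least 2-fold higher with Miglustat and blue the 42 at least 2-fold lower, with Tnn and Lum at the upper right and Prl2c5 at the lower left.

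Brightness differed between the directions. The brighter side lay above the median level of all genes in 22 of the 62 higher genes but in only 2 of the 42 lower ones, Aqp1 and Apol9b. Over all genes measured it did so in 7270 of 14293, a larger share than in either direction. The called genes were thus mostly dim in both directions. The error that the scanner software assigns to a difference within these arrays was 0.18 at the median and 0.39 at most. With normexp, a background correction that adds a fixed offset and so shrinks the differences of dim probes, 21 genes were called higher and 2 lower, the latter being Aqp1 and Ramp3. The sign of the difference held under all 5 other scalings for every one of 118 genes picked by a rule on size and list membership. Genes named below beyond that rule are examples chosen after their values were seen. The sign check could hardly fail for genes picked for a large difference, so it gives the calls little support. The largest shift over the scalings was 0.023, under cyclic loess, and that of the authors' own log2 table was 0.0005.

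Genes of the extracellular matrix are given first. Small leucine-rich proteoglycans bind collagen fibrils and growth factors. Of their 13 measured members 12 were higher with Miglustat than with either ceramide analogue, against 35.2% of all genes, and 3 were called (Lum, Aspn and Dcn). Their median difference was 0.51, or 0.30 over 17 genes without the filter on background. Lumican, Lum, was at a level of -0.83 in Control, -0.73 under Miglustat, -3.70 under D-PDMP and -3.03 under D-PPMP. Control and Miglustat were thus alike and the ceramide analogues 6.23-fold below Miglustat, although the probe was dim and the difference of 2.64 was 1.14 with normexp. Asporin, Aspn, was highest with Miglustat at 1.02, against -0.26 in Control, -0.81 with D-PDMP and -0.93 with D-PPMP, a difference of 1.89. Decorin, Dcn, which was bright on all arrays, was at 4.36 in Control, 3.98 under Miglustat, 2.70 under D-PDMP and 3.03 under D-PPMP. Here Control was the highest of the 4 and Miglustat lay between it and the ceramide analogues. Osteoglycin, Ogn, was at 5.14, 5.65, 4.95 and 4.90 in the same order, and biglycan, Bgn, was the only measured member lower with Miglustat, at a difference of -0.11.

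Matricellular proteins, secreted proteins that signal to cells from the matrix, followed with a median of 0.42. Of 26 measured, 18 were higher than with either ceramide analogue, 3 were lower than with both (all genes 43.4%), and 3 were called, all higher. Tenascin-N, Tnn, was at 0.63 in Control, 1.43 under Miglustat, -0.68 under D-PDMP and -1.19 under D-PPMP. Miglustat was the highest array and the ceramide analogues lay 5.17-fold below it, with Control in between, and a second probe gave 2.25. Ccn3, a growth-inhibitory member of the CCN family, was at 3.94, 4.66, 3.01 and 2.95 in the order Control, Miglustat, D-PDMP and D-PPMP. Nephronectin, Npnt, a dim gene, was at -0.73, -0.09, -1.96 and -1.94, and its difference shrank with normexp, though the gene was still called. In both genes the ceramide analogues were close together and below Control while Miglustat was above it. Thrombospondin 1, Thbs1, an activator of latent TGF-beta, showed another pattern, with Miglustat alone apart at 5.66 and the other 3 arrays between 4.67 and 4.84. Of the 3 lower members osteopontin, Spp1, was the farthest. It was lower with Miglustat at 4.88, against 5.54 in Control, 5.74 with D-PDMP and 5.93 with D-PPMP, a difference of -0.95.

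**Figure D2:**
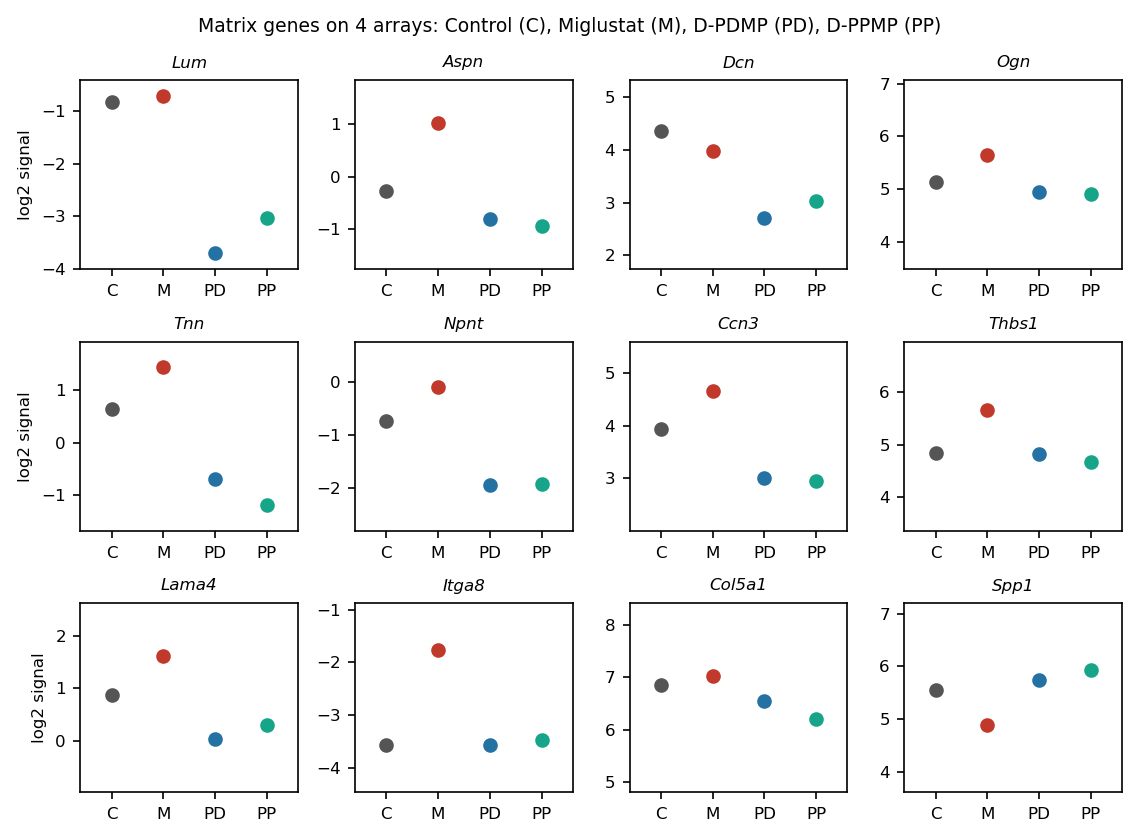
Level (log2 signal minus the array's 75th percentile, y axis) of 12 matrix genes on the 4 arrays, 1 point per array and every panel spanning the same range of log2 units. Lum is about as high in Control as with Miglustat, Dcn is higher in Control, and Spp1 is lowest with Miglustat. Most of the other panels are highest with Miglustat, in Thbs1 and Itga8 with the remaining arrays close together.

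The collagen chains had a median of 0.27. Of 29 measured members 24 were higher than with either ceramide analogue, 3 were lower than with both and none was called. With normexp the median was 0.17, and without the filter on background it was 0.19 over 43 genes. Col11a1, a chain that takes part in starting collagen fibrils, stood highest. It was at 0.22 in Control, 0.75 under Miglustat, -0.14 under D-PDMP and -0.22 under D-PPMP. Col5a1, with a like role, was at 6.85, 7.02, 6.55 and 6.20. Col1a1, the main collagen of bone, differed by only 0.11 and Col1a2 by 0.16. Col7a1 and Col18a1 were on the lower side at -0.23 and -0.19. Collagen-processing enzymes had a median of 0.10 over 27 members, 17 higher and 8 lower than with both, and none called. Among them were Plod2, a lysyl hydroxylase, at 0.48, the cross-linking oxidase Lox at 0.44 and its relative Loxl3 at -0.34.

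Cell-matrix receptors and basement membrane genes split both ways. Integrin chains had a median of 0.02, with 9 of 17 higher and 8 lower than with both, and -0.22 over the 8 brighter members. The chain Itga8, whose integrin binds nephronectin and tenascins, was at -3.57 in Control, -1.77 under Miglustat, -3.56 under D-PDMP and -3.47 under D-PPMP, so that Miglustat alone stood apart; this dim gene differed by 1.75, and by 0.71 with normexp. The collagen receptor chain Itga1 differed by 0.94, and the laminin receptor chain Itga6 by -0.60. Itgb7, a chain known from lymphocytes, was called lower at -1.05 (-0.66 with normexp). Laminins and basement membrane genes had a median of 0.04. Lama4 was at 0.87 in Control, 1.61 under Miglustat, 0.03 under D-PDMP and 0.30 under D-PPMP, a difference of 1.45 (1.42 on its other probe). Lama1 was highest in Control, at 1.68, and lower with Miglustat (0.50) than with D-PDMP (1.27) and D-PPMP (1.06).

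Proteases that shape the matrix had a median of 0.07 over 24 genes, 14 of them higher and 6 lower than with both ceramide analogues. The aggrecanase Adamts5 was the called member, at 1.08 in Control, 1.64 under Miglustat, 0.71 under D-PDMP and 0.40 under D-PPMP. Adamts1 lay just inside the 2-fold limit at 0.98, and the plasminogen activators Plau and Plat were at -0.31 each. For glycosaminoglycan synthesis and sulfation the median was -0.03 over 40 genes, with 11 higher and 16 lower than with both. Chst1, which sulfates keratan sulfate, was at 3.24 in Control, 2.27 under Miglustat, 3.16 under D-PDMP and 3.24 under D-PPMP, so Miglustat alone was low. Examples of called genes that encode secreted matrix proteins outside the lists are Fbn2, a fibrillin, at 1.01, Mfap5, a microfibril protein, at 1.05, and Svep1 at 1.02 (0.51 with normexp).

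Growth factor genes came next. The list of insulin-like growth factors and their binding proteins had a median of 0.36 over 15 measured genes, 9 of them higher and 5 lower than with both ceramide analogues, and 3 were called higher. The median was 0.04 against D-PDMP alone, 0.44 against D-PPMP alone, and 0.04 over 18 genes without the filter on background. The ligand Igf2 was at -1.56 in Control, -1.86 under Miglustat, -4.25 under D-PDMP and -3.14 under D-PPMP. It was therefore low with the ceramide analogues, with Control and Miglustat close together, and as a dim probe it differed by 1.83 but by 0.60 with normexp. The bright ligand gene Igf1 was at 4.76, 5.33, 4.49 and 4.28 in the same order, a difference of 0.94. Igfbp2, which binds both ligands, was at 1.11, 1.48, 0.00 and -0.29. Pappa2, a protease that releases the ligands from binding proteins, was at 6.43, 6.88, 5.74 and 5.69, with a difference of 1.16 (1.43 on its other probe). In both genes the ceramide analogues were low and Miglustat was the highest array. The adaptor of the receptors Irs1 differed by 0.82, whereas the receptor Igf1r was at -0.16 and the binding protein Igfbp4 at -0.39.

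In BMP and TGF-beta signalling, a list of activators and inhibitors alike, the median was 0.04, with 26 of 49 genes higher and 17 lower than with both, and 3 called higher. These were ligand genes. Bmp4, an inducer of bone formation, was at 2.65 in Control, 3.27 under Miglustat, 1.97 under D-PDMP and 2.20 under D-PPMP. Tgfb2 was at 1.72, 2.61, 1.55 and 1.36. The activin subunit Inhbb was dim and differed by 1.27, or 0.67 with normexp. Bmp4 was high with Miglustat and low with the ceramide analogues, while for Tgfb2 Miglustat was the array farthest from Control. The ligand Tgfb1 was on the other side at -0.48, and the activin antagonist Fst at 0.79.

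Wnt signalling, likewise a mixed list, had a median of 0.22, with 22 of 32 genes higher and 8 lower than with both. Without the filter on background it was 0.08 over 55 genes. The secreted Wnt modulator Sfrp2 was called, at 3.11 in Control, 3.62 under Miglustat, 2.29 under D-PDMP and 2.57 under D-PPMP. The ligand Wnt4 differed by 0.79 and the receptors Fzd5, Fzd8 and Fzd7 by 0.69, 0.58 and 0.53. Lef1, a transcription factor at the end of the pathway, was lower with Miglustat at 0.31, against 0.87 in Control, 1.15 with D-PDMP and 1.09 with D-PPMP. Of the retinoic acid genes, Cyp26b1, which degrades retinoic acid, was called higher at 4.52 with Miglustat and at 3.37 to 3.52 on the other 3 arrays.

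**Figure D3:**
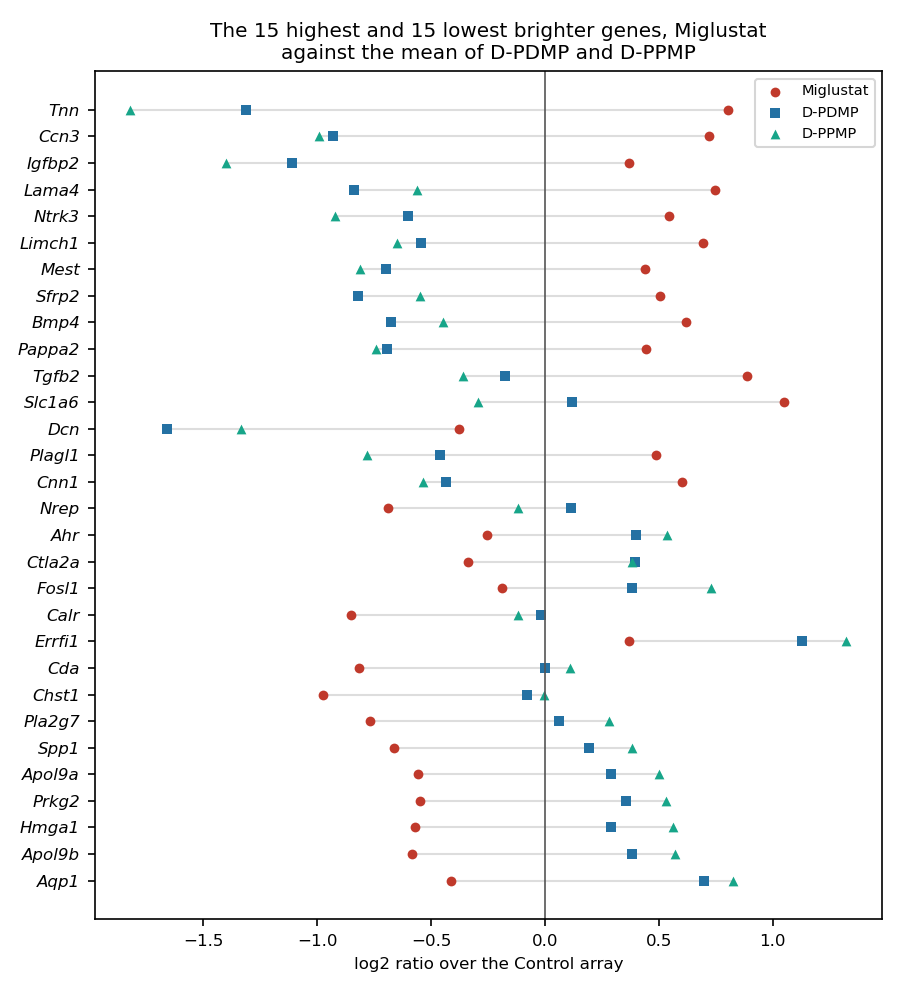
Log2 ratio over the Control array (x axis) with Miglustat (red circles), D-PDMP (blue squares) and D-PPMP (green triangles) for the 15 highest and the 15 lowest genes by the difference, among those above the median level. Zero is the single Control array, which all 3 ratios share. Most rows have Miglustat on one side of it and the ceramide analogues on the other. Dcn, Chst1 and Calr are below Control with all 3 compounds, Chst1 and Calr only slightly so with the ceramide analogues. Errfi1 is above Control with all 3, and in Slc1a6 and Nrep the ceramide analogues fall on different sides of it.

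Among brighter genes outside these lists, the higher side held Ntrk3, the receptor of neurotrophin-3, at 1.30 (0.38 to 1.30 on 3 other probes), the actin-associated Limch1 at 1.29, and the glutamate transporter Slc1a6 at 1.14. The small heat shock protein Hspb1 was at the edge of the 2-fold limit at 1.00, with the next genes inside the limit, Adamts1 and Flrt3, at 0.98 and 0.97. Angiotensinogen, Agt, a dim gene, was at -3.35 in Control, -1.08 under Miglustat, -3.34 under D-PDMP and -3.14 under D-PPMP, so Miglustat alone was high, with a difference of 2.16 (0.95 with normexp). Ptx3, a secreted pattern recognition protein, and Gadd45g, a growth arrest gene, each differed by 1.04.

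The lower side was led, among brighter genes, by the water channel Aqp1, at 4.88 in Control, 4.47 under Miglustat, 5.58 under D-PDMP and 5.71 under D-PPMP. Control lay between, nearer to Miglustat. Apol9b was at 2.74, 2.15, 3.12 and 3.31, and Apol9a, a near-identical copy whose signal may be shared with it, differed by -0.95. Inside the 2-fold limit followed the chromatin protein Hmga1 at -1.0 (-0.90 and 0.19 on its other probes), the cGMP-dependent kinase Prkg2 at -0.99, Pla2g7, which inactivates platelet-activating factor, at -0.94, and the cytidine deaminase Cda at -0.87. Ahr, the aryl hydrocarbon receptor, was at -0.72, while its target Cyp1a1, a dim gene, was called higher at 1.12 (0.20 with normexp).

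Dimmer genes made up the other 40 calls on the lower side. The receptor partner Ramp3 was at 0.81 in Control, -0.73 under Miglustat, 0.69 under D-PDMP and 0.94 under D-PPMP, so that Miglustat alone was low, 2.92-fold below the ceramide analogues. Cardiac troponin T, Tnnt2, differed by -1.40 (-0.89 with normexp) and the engulfment receptor Megf10 by -1.83 (-0.85). The ecto-nucleotidase Nt5e was at -1.48 in Control, -2.71 under Miglustat, -1.57 under D-PDMP and -1.69 under D-PPMP, a difference of -1.08 (-0.44 with normexp). Prl2c5, of the proliferin family, whose members share sequence and may share signal, had the lowest difference, -2.32 (-0.65 with normexp). The carbonic anhydrase Car9 rested on D-PDMP, at -1.69 against that array and -0.31 against D-PPMP, and its other probe gave -0.05; with normexp its difference of -1.0 was -0.31.

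Cell cycle genes parted by phase. DNA replication and S phase genes were lower with Miglustat: 47 of 50 measured members were lower than with both ceramide analogues, 1 was higher, none was called, and the median was -0.32. Mitosis and cytokinesis genes were higher: 50 of 55 were higher than with both, 1 was lower, none was called, and the median was 0.18. Against Control, the S phase median was -0.13 under Miglustat, 0.17 under D-PDMP and 0.17 under D-PPMP, and the mitosis median was 0.19, -0.01 and 0.02. These shifts are smaller than 1.5-fold for every member but E2f2. The replication licensing factor Cdc6 was at 1.81 in Control, 1.5 under Miglustat, 2.06 under D-PDMP and 1.96 under D-PPMP. Mcm5, a subunit of the replicative helicase, was at 4.60, 4.29, 4.75 and 4.78, and the sliding clamp Pcna at 5.81 with Miglustat against 6.09 to 6.25 elsewhere. In these genes Miglustat was the lowest array, with Control nearer to the ceramide analogues. Rrm1, a ribonucleotide reductase subunit, went the other way at 0.15. Of the mitotic genes, the kinase Aurka was at 5.07 in Control, 5.23 under Miglustat, 4.82 under D-PDMP and 4.80 under D-PPMP, and Plk1 at 5.04, 5.23, 4.90 and 4.89. The cyclin gene Ccnf differed by 0.43, the spindle proteins Ckap2l and Prc1 by 0.39 and 0.34, and the cyclin gene Ccnb2 by -0.17. In bulk RNA, fewer cells in a phase and less of these mRNAs per cell cannot be told apart.

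**Figure D4:**
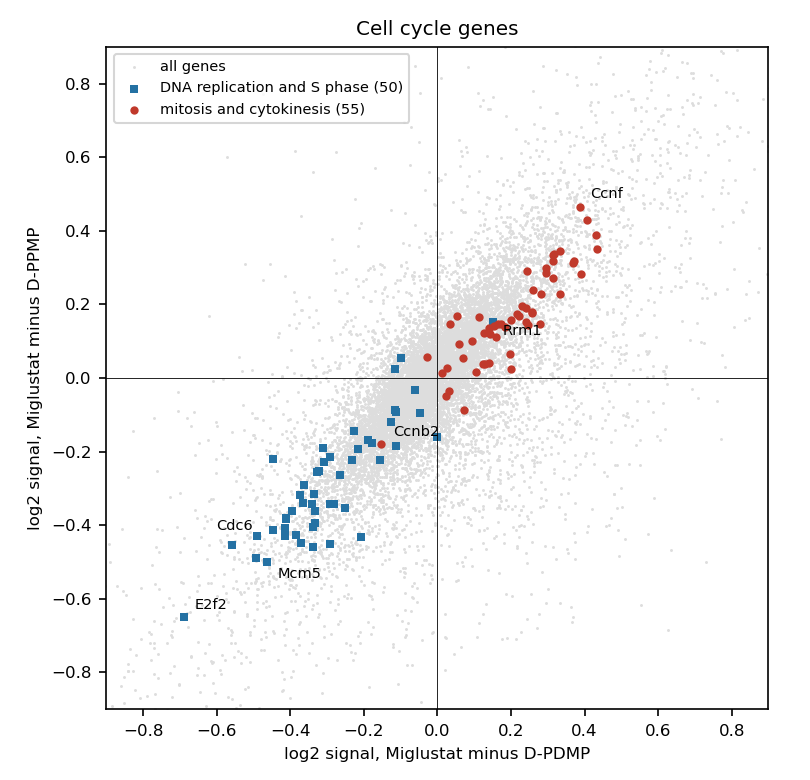
Log2 difference of Miglustat from D-PDMP (x axis) and from D-PPMP (y axis) for 50 DNA replication and S phase genes (blue squares) and 55 mitosis and cytokinesis genes (red circles), over all genes in grey; the axes stop at 0.9, so more distant genes are not shown. The S phase genes lie mostly at the lower left and the mitotic genes at the upper right.

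Promoters of both cell cycle groups were searched on both strands in RefSeq windows of GRCm38.p6 that run from 250 bases before to 50 bases after the start of a gene. The E2F site, spelled TTTCCCGC or TTTGGCGC, is known from S phase promoters. It stood in 13 of 47 windows of the S phase list (27.7%) and in 2 of 48 of the mitosis list (4.17%), against 1.56% of all 32851 windows. The cell cycle genes homology region, spelled TTTGAA and known from mitotic promoters, stood in 37 of 48 windows of the mitosis list (77.1%) and in 6 of 47 of the S phase list (12.8%), against 17.9% of all windows. These 2 motifs were chosen after the values of the lists were seen, and neither pattern contains the other. Measured S phase genes with an E2F site had a median difference of -0.40 (13 genes), and those without one -0.29 (27 genes). For the mitosis list the medians were 0.21 with the homology region (35 genes) and 0.14 without it (11 genes). A match is a run of letters and was not tested as a binding site. For the stretches below, windows on a single chromosome were left out of the choice. Among the rest, the stretches are those of the 3 members with the largest differences whose motif lies before the start. They are shown because they set the sequences of the 2 groups side by side. They read 5′ to 3′ on the strand of the gene, with the motif in capitals. The E2F stretches are of Cdc6 (chr11:98907988-98908045, plus strand), Mcm5 (chr8:75109335-75109392, plus strand) and Mcm7 (chr5:138172016-138172073, minus strand), each with the site on the reverse strand, so that its reverse complement is printed. The homology region is shown for Ccnf (chr17:24251509-24251564, minus strand), Ckap2l (chr2:129297213-129297267, minus strand, motif on the reverse strand) and Prc1 (chr7:80294421-80294475, plus strand). Differences were -0.51, -0.48 and -0.41 for Cdc6, Mcm5 and Mcm7, and 0.43, 0.39 and 0.34 for Ccnf, Ckap2l and Prc1.
Cdc6: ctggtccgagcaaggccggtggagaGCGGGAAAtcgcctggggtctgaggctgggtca
Mcm5: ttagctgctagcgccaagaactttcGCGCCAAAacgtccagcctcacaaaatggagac
Mcm7: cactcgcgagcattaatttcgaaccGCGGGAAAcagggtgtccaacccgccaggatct
Ccnf: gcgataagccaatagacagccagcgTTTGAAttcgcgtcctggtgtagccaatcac
Ckap2l: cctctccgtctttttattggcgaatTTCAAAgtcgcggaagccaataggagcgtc
Prc1: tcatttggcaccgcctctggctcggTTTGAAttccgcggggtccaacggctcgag

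Cholesterol synthesis and uptake genes were lower with Miglustat than with the ceramide analogues. Of 24 measured, 21 were lower than with both, 2 were higher, none was called, and the median was -0.23. Against Control the median was -0.17 under Miglustat, 0.02 under D-PDMP and 0.10 under D-PPMP. Insig1, a sterol-responsive regulator of the pathway, was at -0.07 in Control, -0.32 under Miglustat, 0.06 under D-PDMP and 0.35 under D-PPMP. The synthase Hmgcs1 was at 5.47, 5.16, 5.59 and 5.65. Miglustat was the lowest array for both. Squalene epoxidase, Sqle, differed by only -0.02 and Tm7sf2, a sterol reductase, by 0.26. The sterol regulatory element, spelled TCACNCCAC, stood in 1 of 23 promoter windows of this list (4.35%) against 1.24% of all windows. That window is the one of Hmgcs1, printed because it is the only match in the list (chr13:119690189-119690247, plus strand, motif in capitals).
Hmgcs1: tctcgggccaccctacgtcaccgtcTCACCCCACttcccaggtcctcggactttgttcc

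ERK feedback genes, which are switched on by growth factor signalling and restrain it, had a median of -0.29, or -0.13 with normexp, with 15 of 21 lower and 5 higher than with both. None was called. Errfi1, an inhibitor of the EGF receptor, was at 1.79 in Control, 2.16 under Miglustat, 2.92 under D-PDMP and 3.11 under D-PPMP. The phosphatase Dusp6 was at 3.92, 3.95, 4.34 and 4.52. All 3 compounds were thus above Control for Errfi1, and only the ceramide analogues clearly so for Dusp6. Dusp1, a phosphatase of several MAP kinases, ran against the list, at 1.98 in Control, 3.35 under Miglustat, 2.82 under D-PDMP and 2.38 under D-PPMP. Immediate early transcription factors had a median of 0.02, with 10 of 29 higher (34.5%) and 12 lower (41.4%) than with both, shares close to those of all genes (35.2% and 43.4%). Fosl1 was at -0.74, Egr3 at -0.89 and Egr1 at -0.35, while Fos was at 0.63, Zfp36 at 0.77 and Atf3, a stress factor and the 1 called gene, at 1.01 (0.43 with normexp). The CArG box stood in 6 of 32 promoter windows of these factors (18.8%), from 3 genes, and in 2 of 21 of the ERK feedback genes (9.52%), against 1.63% of all windows. Immediate early factors with it had a median of -0.15 (3 genes) and those without it 0.04 (20 genes), and ERK feedback genes -0.24 (2 genes) and -0.21 (16 genes).

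**Figure D5:**
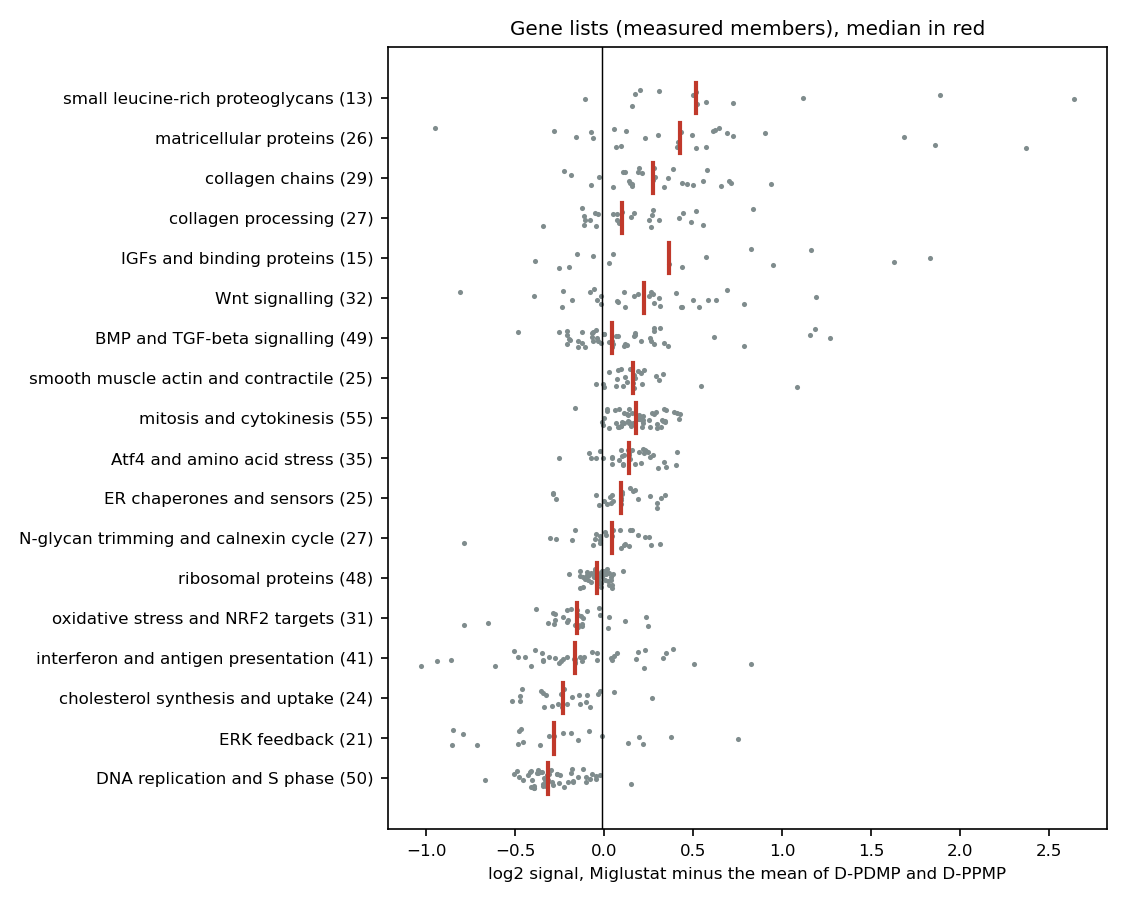
Differences (x axis, log2 signal with Miglustat minus the mean of D-PDMP and D-PPMP) of the measured members of 18 gene lists, 1 grey point per gene and the list's median as a red bar; the number of members stands in parentheses and the black line is the median of all genes, -0.02. The medians run from 0.51 for the small leucine-rich proteoglycans to -0.32 for DNA replication and S phase genes.

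Genes of the endoplasmic reticulum bear on the known action of iminosugars on glucosidases there. In N-glycan trimming and the calnexin cycle the median was 0.04, with 14 of 27 higher and 8 lower than with both. The glucosidase genes Mogs and Ganab each differed by 0.14, Ganab by -0.07 on its other probe. Calreticulin, Calr, a chaperone of the cycle, was at 4.92 in Control, 4.07 under Miglustat, 4.91 under D-PDMP and 4.81 under D-PPMP, so Miglustat alone was low. Calnexin, Canx, differed by -0.18, about the scanner error, and their partner oxidoreductase Pdia3 by -0.31. In the list of chaperones and unfolded protein sensors the median was 0.09, with 15 of 25 higher and 4 lower than with both. Hsp90b1 and Pdia4 were at -0.29 each and Pdia6 at -0.27, while the stress sensor Eif2ak3 was at 0.30 and the cochaperone Dnajb9 at 0.34. None in either list was called.

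The Atf4 and amino acid stress list, of genes for amino acid transport, synthesis and tRNA charging, had a median of 0.14, with 27 of 35 higher and 3 lower than with both and none called. Against Control all 3 medians were below 0, at -0.09 under Miglustat, -0.20 under D-PDMP and -0.25 under D-PPMP. The amino acid transporters Slc7a3 and Slc7a5 were at 0.41 and 0.40, but at 0.10 and 0.21 with normexp. The core of the amino acid response element, spelled TGATGNAA, stood in 11 of 36 promoter windows of the list (30.6%) against 3.97% of all windows. Measured genes with it had a median of 0.20 (9 genes) and those without it 0.12 (20 genes). For the choice that follows, windows on the chromosome left out for the cell cycle stretches were again left out. The 3 members with the largest differences and a match before the start were the cystine transporter Slc7a11 at 0.34 (chr3:50443647-50443704, minus strand), the glutathione-degrading enzyme Chac1 at 0.25 (chr2:119351024-119351081, plus strand) and the stress regulator Nupr1 at 0.23 (chr7:126625548-126625605, minus strand). They are printed to show the shared core in capitals, which is on the reverse strand in Chac1 and Nupr1 and stands once on each strand in Slc7a11.
Slc7a11: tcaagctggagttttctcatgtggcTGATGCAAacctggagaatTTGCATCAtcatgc
Chac1: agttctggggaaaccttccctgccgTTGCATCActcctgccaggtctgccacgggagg
Nupr1: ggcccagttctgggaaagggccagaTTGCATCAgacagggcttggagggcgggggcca

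Interferon and antigen presentation genes had a median of -0.17, with 28 of 41 lower and 10 higher than with both. Oasl2, a relative of the antiviral oligoadenylate synthases, was the called member at -1.03 (-0.35 with normexp), and the guanylate-binding protein Gbp3 was at -0.94. Isg15, a ubiquitin-like protein, and Ifi27l2a ran against the list at 0.50 and 0.82. Ifi27l2a was at 0.76 in Control, 1.81 under Miglustat, 0.83 under D-PDMP and 1.13 under D-PPMP. NRF2 targets, which defend against oxidants, had a median of -0.16 and 25 of 31 members lower than with both, against 2 higher. Glutathione reductase, Gsr, was at -0.32 and the quinone reductase Nqo1 at -0.28, while haem oxygenase Hmox1 was at 0.24. Genes of hypoxia and glycolysis had a median of -0.09, with 22 of 34 lower than with both, and p53 targets one of -0.07, with 18 of 26 lower.

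Smooth muscle actin and contractile genes had a median of 0.16, with 22 of 25 higher and 1 lower than with both. Calponin, Cnn1, was the called member, at 2.86 in Control, 3.46 under Miglustat, 2.43 under D-PDMP and 2.33 under D-PPMP, with Miglustat above Control and the ceramide analogues below it. Smooth muscle myosin, Myh11, differed by 0.54, smoothelin, Smtn, by 0.33 and Tagln by 0.31.

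Osteoblast lineage and bone matrix genes had a median of 0.05, with 16 of 27 higher and 5 lower than with both and none called. Osterix, Sp7, a dim gene needed for osteoblast differentiation, was at -3.35 in Control, -2.61 under Miglustat, -3.33 under D-PDMP and -3.79 under D-PPMP, a difference of 0.95 that was 0.28 with normexp. Runx2, upstream of it, differed by 0.05. The osteocalcin relatives Bglap2 and Bglap3, near-identical copies, were at -0.38 and -0.27, and the pyrophosphate exporter Ank at -0.52. Prostaglandin synthesis and receptor genes had a median of -0.11, with 3 of 13 higher and 8 lower than with both. The receptor gene Ptger1 was called at 1.02 (0.50 with normexp), Ptgfr was at 0.88 and Ptger4 at -0.62. The list of Ramp proteins and peptide hormone receptors had a median of 0.20, with 10 of 18 higher and 3 lower than with both, but of 0.05 with normexp and 0.02 over 28 genes without the filter on background. In it the endothelin receptor gene Ednrb was at 0.96, and Ramp3 was the called member.

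The genes closest to the common target differed little. Ugcg was at 1.45 in Control, 1.54 under Miglustat, 1.53 under D-PDMP and 1.45 under D-PPMP, a difference of 0.05 (-0.02 to 0.04 on its other probes). The lactosylceramide synthase B4galt5 differed by -0.17, the GM3 synthase St3gal5 by 0.03 and Gba2 by -0.05. Glycosphingolipid synthesis had a median of -0.05, with 6 of 16 higher and 9 lower than with both and none called. Its most distant member, the dim sialyltransferase St8sia5, was at -0.33 against D-PDMP and -1.18 against D-PPMP. The medians were -0.02 for glycosphingolipid breakdown, 0.00 for ceramide and sphingosine phosphate genes and -0.01 for lysosome and autophagy genes, and the sign of all 3 depended on the scaling. The neutral sphingomyelinase Smpd3 was the highest sphingolipid gene, at 0.66. Ribosomal proteins, with a median of -0.04, and the respiratory chain, with -0.05, lay close to all genes, the member farthest from 0 being Cox6a2 at -0.24. The arrays measured mRNA and give no lipid level or enzyme activity.

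Some genes were well above background on 1 side only, so that a fold is a lower bound. This filter itself sets their direction, and the bound has no replicate error. The bound sets the brighter level against a floor. On a dim array the floor is the faintest signal still well above background or, if higher, the signal of the probe itself. Of 22911 genes with a probe, 188 were so on Miglustat but neither ceramide analogue, and 18 of these had a bound of 2-fold or more. The bound was 4.91-fold higher for the RNA editing cofactor A1cf and 4.50-fold higher for Sez6. Neither was well above background in Control. On D-PDMP and D-PPMP but not Miglustat there were 260, of which 17 had such a bound. Among them the cytokine Il15 was at least 2.96-fold lower with Miglustat, Phex, an osteoblast and osteocyte peptidase that controls phosphate, at least 2.46-fold lower and the EGF receptor ligand Areg at least 2.42-fold lower. Il15 and Phex were well above background in Control too, whereas Areg was not.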

How the data were processed

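Total RNA of MC3T3-E1 cells was hybridised to Agilent 1-colour arrays, 1 per group. The deposited scanner files hold spot intensities, background-subtracted by Agilent Feature Extraction 12.1.1.1 and, per the file headers, without normalization across arrays. The deposited log2 table of the authors equals log2 of that signal minus the 75th percentile, within 0.05 for at least 99.998% of probes (column medians -4.1, -4, -4 and -3.89, direction that of the signal, not centred on genes), and served as an alternative; its software is not given in the sources used here.

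Control spots were left out. The 66 to 85 outlier spots per array were left out too, except where all spots of a probe were flagged. Spots of a probe were averaged as log2, and the 75th percentile over 56605 probes was subtracted. Of these probes 32994 (58.3%) were named by accession through RefSeq (GRCm38.p6); 23611 stayed unnamed. A gene is its brightest probe. Spots of probes present several times had a median SD of 0.03 to 0.04. This covers spots within an array only; precision is limited by the number of arrays. The procedure was tested on simulated data with planted folds and the same noise for every probe. That checked the calculation only, and differences between cultures were not simulated.

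The comparison, 49 gene lists (42 of processes, 7 of other cell types) and the naming rule were chosen with earlier results of these data known. The rule took the 15 highest and 15 lowest genes above the median level on the brighter side, up to 4 called or else the 2 most distant members of each list, the 5 largest bounds each way, and 13 fixed genes; further genes were chosen after their values were seen. The 7 lists of other cell types held 2 to 8 measured genes, with medians from -0.34 to 0.28 and none called. Quantile and cyclic loess normalization, normexp (limma 3.58.1, R 4.3.3) on the median spot signal, other filters, other probe rules and single comparators were the alternatives. Python 3.11.15 with pandas 2.3.3 was used.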

Additional observations from a re-analysis of the deposited data

Results flagged for a closer look

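Miglustat lay on one side of Control and D-PDMP and D-PPMP on the other, each at least 1.5-fold away, for 6 of the genes that were called or picked by rule. The pattern was looked for among these genes only, and its share over all genes was not computed. Most of them were chosen for a large difference, which favours opposite sides of Control. The difference between the compounds was not tested. Against Control the log2 ratios were 0.80 for Miglustat, -1.31 for D-PDMP and -1.82 for D-PPMP in Tnn, a difference of 2.37. In the same order they were 0.72, -0.93 and -0.99 for Ccn3, a difference of 1.68. Npnt, a dim gene, was at 0.63, -1.23 and -1.21, a difference of 1.86. Tafa2, a dim gene, was at 0.64, -0.60 and -0.83, a difference of 1.36. The other 2, also dim, went the opposite way: Megf10 was at -0.92, 0.98 and 0.84, a difference of -1.83, and Prl2c5 at -1.04, 0.88 and 1.67, a difference of -2.32. The 3 ratios of a gene share the single Control array.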

How the results depend on the processing

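The 62 higher and 42 lower genes became 21 and 2 with normexp (on the median spot signal, chosen after the files were seen because they hold no mean signal), 22 and 2 where the brighter side had to lie above the median level, 385 and 838 without a background filter, 40 and 24 where each comparator had to be 2-fold away, and 260 and 244 at 1.5-fold. Against D-PPMP alone 66 were lower. The split was 71 and 36 under quantile and 71 and 34 under cyclic loess normalization. The median of all genes lay between -0.02 and 0.01 over the scalings, changing sign, and the largest shift was 0.023, under cyclic loess. Of 1247 differences of named genes under alternatives, 77 moved beyond the scanner error, no called gene changing sign. Called genes were chosen for a large difference, so a kept sign gives the calls little support. Of 538 list medians 36 moved by more than a rough standard error of the median, which is smaller than the spread of the genes. It was taken from the SD of the list's genes and their number. The adipocyte marker list had no gene left above the median level. The sign of 9 list medians depended on the scaling, those of glycosphingolipid breakdown, ceramide, LXR target, lysosome, metallothionein and semaphorin genes and of chondrocyte, macrophage and fibroblast markers. Averaging probes changed Plagl1 from 1.11 to 0.32, Hmga1 from -1.0 to -0.57 and Car9 from -1.0 to -0.53. Dim genes are the least certain, and differences between cultures were not measured. No paired analysis was possible because each group has 1 array.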

Other observations

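Igf2, H19, Mest and Plagl1, examples of genes known to be imprinted, were among the higher genes. They were picked out after their values were seen and from no list, and the imprinted genes measured were not counted. Mest was at 1.11 in Control, 1.55 under Miglustat, 0.41 under D-PDMP and 0.30 under D-PPMP, and its other probe gave a difference of 1.18 beside 1.19. The non-coding RNA H19 was dim and at -3.18, -3.42, -4.97 and -4.47 in the same order, a difference of 1.30 (0.20 with normexp), so that Control and Miglustat were close and the ceramide analogues low, as for Igf2. The zinc finger factor Plagl1 differed by 1.11 on its brightest probe and by -0.46 on its other one. Whether imprinted genes as a group differ was not tested.

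Of 11375 probes with no gene name that were well above background on all 3 arrays, 29 were at least 2-fold higher with Miglustat and 26 at least 2-fold lower, together 0.48%, against 0.63% of the named probes.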
